A study of Mus musculus with 6 samples.

Results

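Imprinted genes are expressed mainly or wholly from the chromosome inherited from 1 parent. They lie in clusters that share a control region whose DNA methylation differs between egg and sperm, and many of them act on fetal and placental growth. Paternally expressed genes of these clusters often promote growth and maternally expressed ones often restrain it, and long noncoding RNAs in several clusters silence or host their neighbours. Imprinting of some members is limited to the placenta, brain or other tissues, so the allele named below for each gene is background knowledge and was not measured.

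The genes described are 49 imprinted mouse genes of 19 clusters, taken by symbol from a list that was drawn up with earlier results of these same arrays in view. A gene was measured where a probe set carried its symbol and no other, and its brightest probe set by the mean of the 6 arrays was used. This held for 39 of the 49 genes, out of 19938 genes with such a probe set, and each of the 39 had exactly 1. The 39 lie in 18 clusters and comprise 21 genes known for paternal and 18 known for maternal expression. Mirg, Gnas, Snrpn and Ube3a were found on probe sets with several symbols alone and are given no value. H19, Slc22a3, Kcnq1ot1, Zfp264, Nespas and Zrsr1 were on no probe set under these symbols. All 39 measured genes passed the filter on low values, an intensity of 15 on at least 3 arrays.

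The samples were total RNA of whole mouse embryonic spleens at E13.5, with 3 samples of embryos heterozygous at Tlx1 and 3 of embryos homozygous at it. Tlx1 encodes a homeobox transcription factor needed for the spleen to develop. The heterozygous spleens are the comparison group and carry 1 altered copy themselves. The sources used here do not give the altered allele, the strain, the sex of the embryos or whether a sample was 1 embryo or a pool. P-values therefore reflect only how far these arrays differ within a group, which may be technical. In bulk tissue, fewer cells of a type and less RNA per cell cannot be told apart.

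Array medians lay between 106 and 110 intensity units. Tlx1 itself was at 825, 706 and 719 in heterozygous and at 171, 209 and 200 in homozygous spleens. Of 10 spleen mesenchyme genes tested, all measured on every array, 6 were lower in homozygous spleens (60%, beside 6.56% of all genes). Only 1 was higher (10%, beside 10.4%). Tlx1 itself, Nkx2-5, Nkx3-2, Wt1, Tcf21 and Pdgfrb were lower, and Col1a1 was higher (0.24 on the log2 scale). Barx1 (0.27), Col3a1 (0.18) and Pdgfra (0.12) had estimates above 0 and were not called. The summed marker intensity of several but not all other cell types differed between the groups. Bright probe sets weigh most in such a sum. Every listed marker had a value above 0 because the lowest intensity in the table was 2.75. The summed intensity of 15 neuron and glia markers was 3709 to 3829 in heterozygous and 5607 to 5950 in homozygous spleens. For 19 epithelial markers it was 4355 to 5352 and 5500 to 5988. For 19 pancreas markers it was 1886 to 2500 and 3395 to 6917, with 3 of the 19 called higher (15.8%, beside 10.4% of all genes). For 14 erythroid markers it was 13875 to 15064 and 10832 to 11629, and for 19 endothelial markers 11444 to 11770 and 8355 to 8981. Called higher were 8 of the 15 neuron and glia markers (53.3%) and 7 of the 19 epithelial ones (36.8%, beside 10.4% of all genes). Called lower were 7 of the 14 erythroid (50%) and 14 of the 19 endothelial markers (73.7%, beside 6.56% of all genes). The ranges of the sums overlapped for 14 liver markers, 1917 to 2676 and 1730 to 3112. They also overlapped for 10 mesothelium markers, 8921 to 9557 and 8848 to 8924. The sum of 3 Y-linked genes was 1335, 841 and 1583 on the heterozygous and 921, 859 and 835 on the homozygous arrays. The part that any of these shifts has in the values below was not tested, except for the Y-linked level, which was tried as a covariate.

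Values are intensities in the order of arrays 1, 2 and 3 of a group, and folds are log2 fold changes, homozygous minus heterozygous, on the log2(intensity + 1) scale with the standard error (SE). Adjusted p-values are those of limma with Benjamini-Hochberg adjustment over all 18710 genes tested, and a gene is called higher or lower at an adjusted p below 0.05. Since the list was drawn up with this comparison known, its counts are descriptions, and the p-values are not independent support for it. Intensities of different genes come from different probes and are not set against each other.

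The sequences that follow belong to the genes the results turn on. The first set holds the mature microRNAs of 6 microRNA genes between Dlk1 and Dio3, those with the lowest adjusted p there, as RefSeq lists them for GRCm38.p6. Capitals mark the seed, bases 2 to 8, which pairs with target RNAs.

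mmu-miR-431-5p: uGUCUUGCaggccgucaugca

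mmu-miR-431-3p: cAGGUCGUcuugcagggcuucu

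mmu-miR-679-5p: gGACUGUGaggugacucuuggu

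mmu-miR-679-3p: aGCAAGGUccuccucacaguag

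mmu-miR-539-5p: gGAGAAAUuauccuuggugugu

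mmu-miR-134-5p: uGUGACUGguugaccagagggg

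mmu-miR-134-3p: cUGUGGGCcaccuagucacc

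mmu-miR-668-5p: gUAAGUGUgccucgggugagcaug

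mmu-miR-668-3p: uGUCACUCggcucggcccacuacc

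mmu-miR-485-3p: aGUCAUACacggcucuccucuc

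No seed was shared among them. All 23 microRNA genes of the domain that were called higher were found in RefSeq's table, with 43 mature sequences that carry 43 different seeds, so their grouping by seed leaves each sequence alone.

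The second set holds the 300 bases around the start (250 before it to 50 after it) of Peg3, Zim1 and Sfmbt2, from RefSeq on GRCm38.p6. Peg3 and Zim1 are neighbours that moved together, Zim1 with the largest rise of all 39 genes, and Sfmbt2 had the deepest fall. The sequences run in the direction of transcription and capitals mark CG, the dinucleotide that is methylated at imprinted control regions. Methylation was not measured on these arrays.

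Peg3 at chr7:6730370-6730669, minus strand: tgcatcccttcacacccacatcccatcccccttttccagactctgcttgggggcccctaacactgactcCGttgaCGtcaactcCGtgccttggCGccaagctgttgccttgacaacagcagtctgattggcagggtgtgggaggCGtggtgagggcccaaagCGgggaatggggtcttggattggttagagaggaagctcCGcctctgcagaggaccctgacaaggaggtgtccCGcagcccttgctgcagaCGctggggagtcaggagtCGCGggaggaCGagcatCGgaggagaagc

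Zim1 at chr7:6696383-6696682, minus strand: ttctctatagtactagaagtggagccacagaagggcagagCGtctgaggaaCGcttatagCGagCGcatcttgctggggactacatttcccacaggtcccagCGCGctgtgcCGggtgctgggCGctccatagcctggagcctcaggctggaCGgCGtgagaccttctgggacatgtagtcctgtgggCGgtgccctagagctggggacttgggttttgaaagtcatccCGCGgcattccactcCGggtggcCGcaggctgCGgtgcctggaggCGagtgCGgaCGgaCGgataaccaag

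Sfmbt2 at chr2:10372186-10372485, plus strand: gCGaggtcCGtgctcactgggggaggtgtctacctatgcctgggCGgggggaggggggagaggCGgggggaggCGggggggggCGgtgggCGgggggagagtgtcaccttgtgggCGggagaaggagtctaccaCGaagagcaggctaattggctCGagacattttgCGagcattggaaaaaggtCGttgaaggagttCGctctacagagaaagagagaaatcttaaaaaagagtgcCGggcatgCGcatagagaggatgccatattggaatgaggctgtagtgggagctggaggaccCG

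The Peg3 window holds 13 CG, a number that 37.9% of 32851 promoter windows of this length in RefSeq's table reach or pass. The Zim1 window holds 20 (26.5% of windows) and the Sfmbt2 window shown, 1 of the 2 listed for that gene, holds 16 (33% of windows). Peg3 and Usp29 are transcribed away from each other from starts so close that their windows share 263 bases. Windows of 33 of the 39 genes, 45 in all, had a median of 16 CG against 7 over all windows. Chromosome 18, where Impact lies, was left out in taking the windows of the 39 genes but not in the median over all windows.

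Of the 39 imprinted genes, 17 were higher in homozygous spleens (43.6%) and 2 were lower (5.13%). Over all 18710 genes 10.4% were called higher and 6.56% lower, together 17.0%, and these shares are set beside the count of a list drawn up with the comparison known. The median log2 fold change was 0.22 over the 39 genes and 0.02 over all genes tested, and 29 of the 39 estimates lay above 0. All homozygous arrays lay above all heterozygous arrays for 23 of the genes and below them for 2, beside 21.1% and 17.2% of all genes. The rises reached from 0.22 for Igf2 to 1.07 for Zim1, whose rise was passed by 13 of all genes tested. The 2 falls, a share below that of all genes, were of Sfmbt2 and Nnat. Both are known for paternal expression, Sfmbt2 in extraembryonic tissue, and no pattern by allele is read from 2 genes. The fall of Sfmbt2 was passed by 20 of all genes tested. The 2 calls of lower became 1 when heterozygous replicate 1, heterozygous replicate 2 or homozygous replicate 1 was left out, and the gene that lost its call was Nnat.

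**Figure D1:**
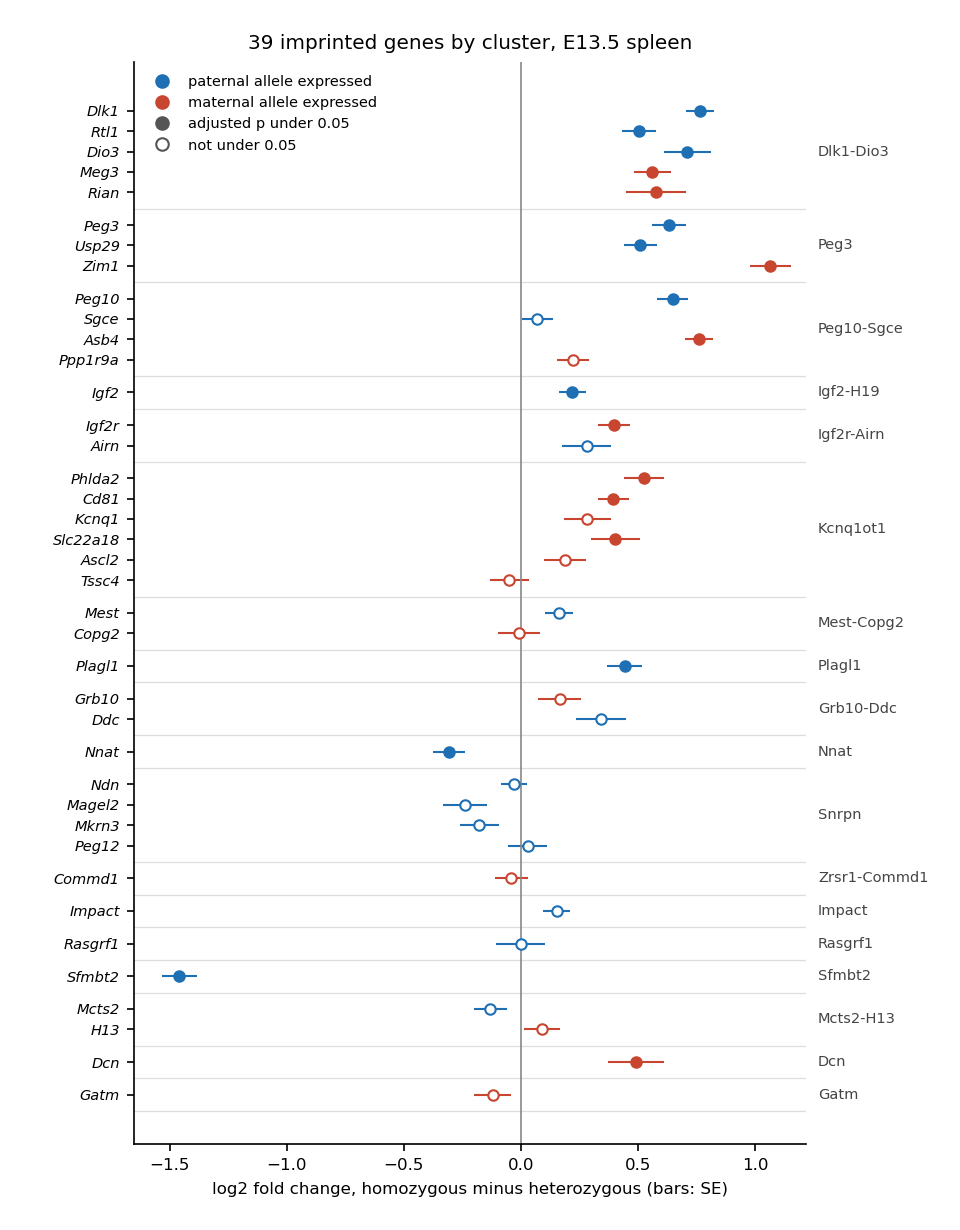
Log2 fold change (x axis, homozygous minus heterozygous) of each of the 39 imprinted genes, grouped by cluster, with bars for the SE and colours for the allele known to be expressed; filled points have an adjusted p below 0.05. All genes measured in the Dlk1-Dio3 and Peg3 clusters lie to the right, the 4 of the Snrpn cluster lie around 0, and Sfmbt2 stands alone at -1.46.

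**Figure D2:**
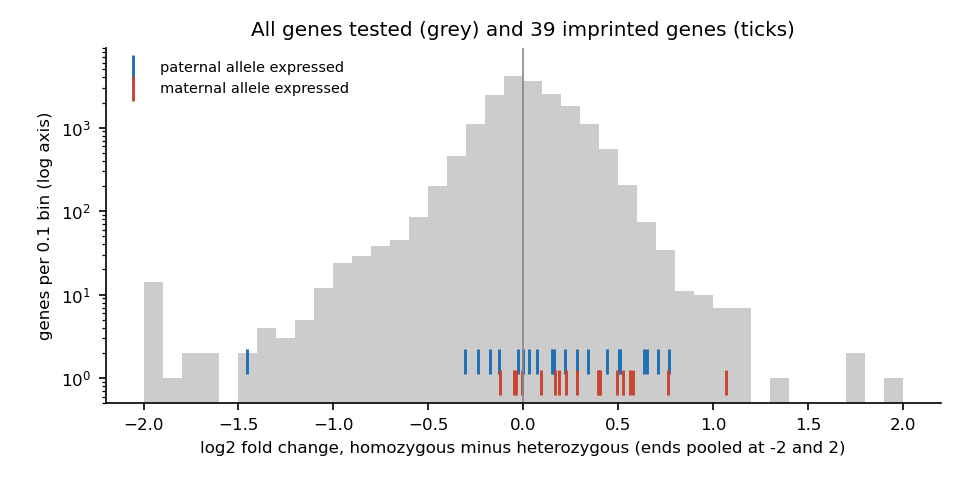
Histogram of the log2 fold change over all 18710 genes tested (grey, bins of 0.1, count on a log axis, the ends pooled at -2 and 2), with a tick for each of the 39 imprinted genes coloured by expressed allele. The ticks reach from -1.46 to 1.07 around a median of 0.22, where the median of all genes is 0.02.

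Genes of both parental alleles were among the rises. Of the 18 genes known for maternal expression 9 were higher (50%, beside 10.4% of all genes) and none was lower (beside 6.56%). Their median was 0.34. Of the 21 known for paternal expression 8 were higher (38.1%) and 2 lower (9.52%), with a median of 0.16. The 2 groups of genes were not tested against each other. Of the 24 genes whose imprinting is not limited to some tissues 14 were higher (58.3%, beside 10.4% of all genes) and 1 was lower (median 0.40). Of the 15 with such a limit 3 were higher (20%) and 1 was lower (median 0.17). This split was not tested either, and the 24 hold every measured gene of the Dlk1-Dio3 and Peg3 clusters.

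Of the 6 listed genes of the Dlk1-Dio3 cluster on chromosome 12, the 5 that were measured were called higher, by 0.51 to 0.77. This is 100% of the measured genes, beside 10.4% of all genes. Its paternally expressed genes are Dlk1, a membrane and secreted inhibitor of Notch signalling and fat cell formation, Rtl1, a retrotransposon-derived gene of placental vessels, and Dio3, which inactivates thyroid hormone. Dlk1 was at 2515, 2400 and 2533 in heterozygous and at 4190, 4191 and 4285 in homozygous spleens. Rtl1 was at 165, 166 and 186 against 246, 233 and 257. Dio3, below the median probe set on every array but homozygous array 3, was at 55.5, 67.4 and 60.3 against 95.7, 92.1 and 115. For each of the 3 genes every homozygous array lay above every heterozygous one. The log2 fold changes were 0.77 ± 0.06 (SE) for Dlk1, 0.51 ± 0.07 for Rtl1 and 0.71 ± 0.10 for Dio3, with adjusted p-values of 0.000206, 0.00392 and 0.00384.

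The maternally expressed noncoding RNAs of the cluster rose as well. Meg3, a long noncoding RNA, was at 4037, 3817 and 4362 in heterozygous and at 6144, 6369 and 5524 in homozygous spleens. Rian, the host RNA of box C/D small nucleolar RNAs, was at 238, 244 and 279 against 371, 458 and 317. Neither gene's groups overlapped, and homozygous array 3 was the lowest of its group for both, whereas it was the highest for Dlk1, Rtl1 and Dio3. Meg3 rose by 0.56 ± 0.08 (adjusted p = 0.00366) and Rian by 0.58 ± 0.13 (adjusted p = 0.0199). The call of Rian was lost once the Y-linked level was a covariate (0.66, adjusted p = 0.0508). It was also lost without heterozygous replicate 1 (0.53, adjusted p = 0.0609), heterozygous replicate 2 (0.55, adjusted p = 0.0599) or homozygous replicate 1 (0.59, adjusted p = 0.0658), so the estimate stayed near its size in these 4 fits. In RefSeq, Rtl1 overlaps the gene bounds of Meg3 and Rian, and the sources do not give the strand that the probes read, so the signals of these genes cannot be told apart.

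Between Dlk1 and Dio3 lie many microRNA genes that are processed from the maternally expressed RNAs, and 40 of them had a probe set of their own and passed the filter. They are not among the 49 listed genes and were taken by position after the values had been seen. Of these 40, 23 were called higher (57.5%, beside 10.4% of all genes) and none lower (beside 6.56%). In all, 35 estimates lay above 0, and the median log2 fold change was 0.42. Of the other 197 microRNA genes tested, 37 were higher (18.8%) and 8 lower (4.06%), with a median of 0.10. No more is read from this contrast, since probe sets of one host transcript are not independent. The 23 calls became 12 without heterozygous replicate 1, 11 without heterozygous replicate 2 and 10 without homozygous replicate 1. Among the 3 small nucleolar RNA genes of the domain with a probe set of their own, 2 were higher (66.7%, beside 10.4% of all genes). Of these, DQ267102 was at 639, 667 and 744 against 1147, 1225 and 1029 (0.73 ± 0.09, adjusted p = 0.00179).

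The 6 microRNA genes whose mature sequences stand above had groups that did not overlap, which their choice by lowest adjusted p made likely. All homozygous arrays lay above all heterozygous ones for 23 of the 40 microRNA genes, beside 21.1% of all genes. Mir679 was at 665, 585 and 632 in heterozygous and at 1159, 1174 and 918 in homozygous spleens. Mir134 was at 466, 417 and 442 against 728, 680 and 648. Mir485 was at 139, 130 and 136 against 205, 215 and 187. These rises came to 0.78 ± 0.10 (adjusted p = 0.00269), 0.63 ± 0.07 (0.00138) and 0.58 ± 0.07 (0.00215) in limma. Mir431, Mir539 and Mir668 rose by 0.61 ± 0.08 (adjusted p = 0.0033), 0.55 ± 0.08 (0.00331) and 0.42 ± 0.06 (0.00378). The calls of all 6 were kept under each of the 19 alternatives. Such a probe set can read the host transcript or the precursor, and the mature microRNA was not measured.

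Not every microRNA gene of the domain was higher. Mir379 was at 53.1, 68.8 and 86.7 in heterozygous and at 65.9, 103 and 36.4 in homozygous spleens, with overlapping groups (-0.12 ± 0.33, adjusted p = 0.829). Mir376a, near the filter, was at 15.3, 20.9 and 17.8 against 13.9, 15.1 and 10.3 (-0.44 ± 0.14, adjusted p = 0.0704), and all its homozygous arrays lay below the heterozygous ones. Within the homozygous group, array 3 was the lowest for 34 of the 40 microRNA genes (85%), where it was the lowest for 29.8% of all genes. Array 2 was the highest for 27 of the 40 (67.5%), against 28.3% of all genes.

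**Figure D3:**
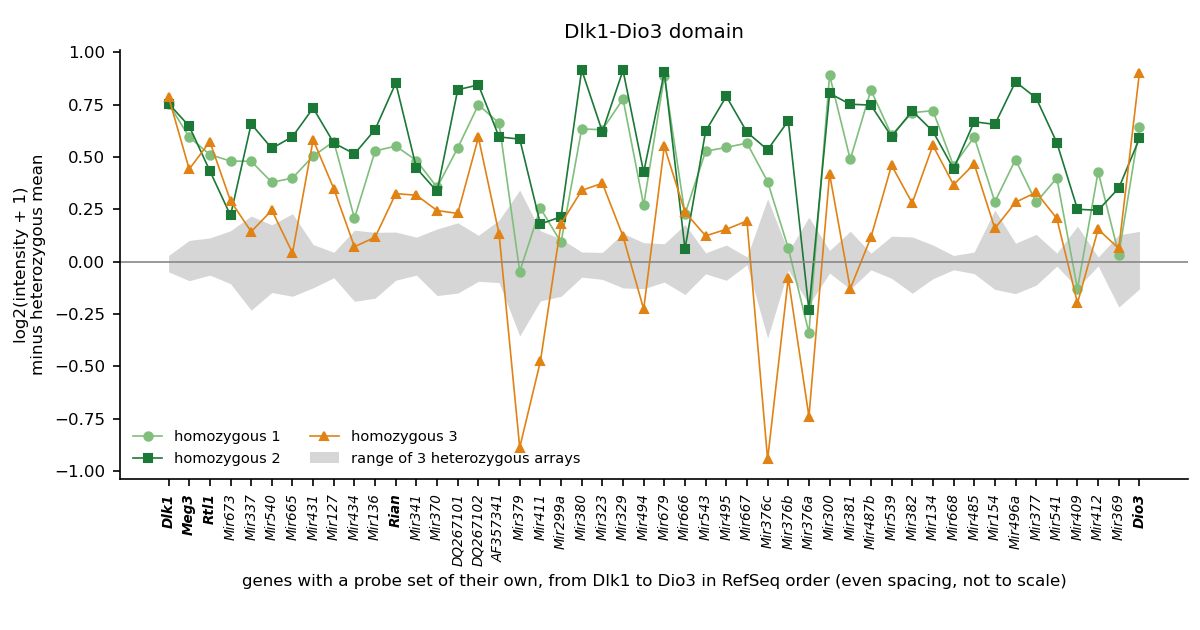
Log2(intensity + 1) minus the heterozygous mean (y axis) for the 48 genes with a probe set of their own from Dlk1 to Dio3, in RefSeq order at even spacing; lines are the 3 homozygous arrays, the grey band is the range of the 3 heterozygous arrays, and listed imprinted genes are in bold. Of the 48 genes 30 were called higher (62.5%, beside 10.4% of all genes). Homozygous array 3 runs lowest over most microRNA genes but not at Dlk1, Rtl1 and Dio3.

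All 3 genes measured in the Peg3 cluster on chromosome 7 were called higher (100%, beside 10.4% of all genes). Peg3 is a paternally expressed zinc finger transcription factor, Usp29 is its paternally expressed head-to-head neighbour of the ubiquitin peptidase family, and Zim1 is a maternally expressed zinc finger gene. Peg3 was at 2840, 2834 and 2814 in heterozygous and at 4224, 4818 and 4161 in homozygous spleens. Usp29, below the median probe set on every array, was at 61.5, 69.7 and 67.2 against 93.6, 99.3 and 90.7. Zim1 was at 1045, 1121 and 1156 against 2186, 2630 and 2166, a 2.09-fold rise. No groups overlapped, and homozygous array 2 was the highest of the 6 for all 3 genes. The log2 fold changes were 0.63 ± 0.07 for Peg3, 0.51 ± 0.07 for Usp29 and 1.07 ± 0.09 for Zim1, with adjusted p-values of 0.00138, 0.0034 and 0.000295. These calls were kept under each of the 19 alternatives.

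In the Peg10-Sgce cluster on chromosome 6 1 neighbour of a close pair was called and the other was not. Peg10, a paternally expressed retrotransposon-derived gene needed for the placenta, was at 2489, 2550 and 2506 in heterozygous and at 3676, 4049 and 4130 in homozygous spleens (0.65 ± 0.07, adjusted p = 0.000802). Sgce, the epsilon-sarcoglycan gene, lies 101 bases from Peg10 in RefSeq and is also paternally expressed. Its values were 1380, 1310 and 1211 against 1377, 1349 and 1364, with overlapping groups and an estimate of 0.07 ± 0.07 (adjusted p = 0.494). The difference between the 2 genes was not tested. Asb4, a maternally expressed gene of a ubiquitin ligase subunit, was at 1078, 1085 and 1041 against 1787, 1859 and 1789, and its rise of 0.76 ± 0.06 (adjusted p = 0.000211) stood clear of the small spread within each group. Ppp1r9a, which encodes the actin-binding protein neurabin, was at 419, 419 and 422 against 488, 528 and 458 (0.22 ± 0.07, adjusted p = 0.0557). Its groups did not overlap although it was not called, and it was called under 9 of the 19 alternatives, among them quantile normalization (0.29, adjusted p = 0.023) and the refit without homozygous replicate 3 (0.27).

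Igf2, the paternally expressed fetal growth factor on chromosome 7, was higher in homozygous spleens by a small margin. Its intensity was 8118, 8364 and 8362 in heterozygous and 9685, 9593 and 9673 in homozygous spleens, with no overlap. The rise was 0.22 ± 0.06 (adjusted p = 0.0316). That call was lost in every refit without 1 array other than homozygous replicate 2, with log2 fold changes of 0.21 to 0.23 and adjusted p-values of 0.0619 to 0.105, and likewise once the Y-linked level was a covariate (0.21, adjusted p = 0.148). Median centring (0.20, adjusted p = 0.0513) and cyclic loess over the genes tested (0.19, adjusted p = 0.0599) ended it too.

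Igf2r, on chromosome 17, encodes the receptor that takes Igf2 to the lysosome for breakdown, and it is expressed from the maternal allele. It was at 2044, 2038 and 2207 in heterozygous and at 2761, 2933 and 2601 in homozygous spleens, a rise of 0.40 ± 0.07 (adjusted p = 0.00872). Airn, the paternally expressed antisense RNA that silences Igf2r, was at 446, 452 and 523 against 538, 668 and 526 (0.28 ± 0.11, adjusted p = 0.1). The Igf2r groups lay well apart, whereas the lowest homozygous value of Airn was just above its highest heterozygous one. The 2 genes overlap on opposite strands, so part of either signal may belong to the other, which was not tested.

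In the Kcnq1ot1 cluster on chromosome 7, 3 of 6 measured genes were higher (50%, beside 10.4% of all genes) and none was lower (beside 6.56%). All 6 are known for maternal expression. Phlda2, which restrains placental growth, was at 71.5, 71.4 and 85.2 in heterozygous and at 116, 107 and 106 in homozygous spleens. Cd81, a tetraspanin gene, was at 4021, 3886 and 3667 against 5009, 4881 and 5331. Slc22a18, a transporter gene, was at 111, 116 and 97.0 against 158, 124 and 148. The groups did not overlap for any of the 3, though for Slc22a18 the gap was small. Phlda2 rose by 0.53 ± 0.08 (adjusted p = 0.00613), Cd81 by 0.40 ± 0.07 (0.00741) and Slc22a18 by 0.40 ± 0.10 (0.0329) in limma. Once the Y-linked level was a covariate, Cd81 was at 0.36 (adjusted p = 0.0522) and Slc22a18 at 0.31 (adjusted p = 0.189). Slc22a18 also lost its call in every refit without 1 array other than homozygous replicate 2, with log2 fold changes of 0.33 to 0.46 and adjusted p-values of 0.0513 to 0.114. Cyclic loess (0.36, adjusted p = 0.0533) and cyclic loess over the genes tested (0.33, adjusted p = 0.0649) ended its call as well.

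The other 3 genes of this cluster were not called. Kcnq1, a potassium channel subunit gene, was at 74.6, 70.5 and 76.1 in heterozygous and at 95.2, 76.7 and 99.96 in homozygous spleens (0.29 ± 0.10, adjusted p = 0.0806), and it was called under 3 of the 19 alternatives, among them the refit without homozygous replicate 2 (0.40). Ascl2, a basic helix-loop-helix factor of the placenta, was at 59.6, 47.5 and 48.6 against 60.7, 57.0 and 59.2 (0.19 ± 0.09, adjusted p = 0.18), and it was called without heterozygous replicate 1 (0.29). Tssc4, which lies 485 bases from Cd81 in RefSeq, was at 207, 191 and 194 against 190, 172 and 212, with overlapping groups (-0.05 ± 0.08, adjusted p = 0.715). Ascl2 overlapped as well, while the lowest homozygous array of Kcnq1 just cleared its heterozygous arrays.

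Of the genes of 3 further growth-related clusters, 1 was called higher and none lower, where 10.4% and 6.56% of all genes were. Plagl1, a paternally expressed zinc finger transcription factor on chromosome 10, was at 3537, 3651 and 4161 in heterozygous and at 5118, 5274 and 5008 in homozygous spleens (0.44 ± 0.08, adjusted p = 0.00756), with no overlap. Mest, a paternally expressed mesoderm gene, was at 9477 ± 327 (SD, n = 3) against 10607 ± 61.6 (0.16 ± 0.06, adjusted p = 0.0901), also without overlap. Copg2, a coatomer subunit gene that overlaps Mest, was at 1020 ± 75.5 against 1017 ± 107 (SD, n = 3). Grb10, an adaptor that dampens insulin and IGF receptors, was at 4133 ± 369 against 4638 ± 431 (0.17 ± 0.09, adjusted p = 0.231), with overlapping groups. Ddc, the aromatic amino acid decarboxylase gene beside it, was at 123, 147 and 162 against 196, 168 and 182 (0.34 ± 0.11, adjusted p = 0.0597). Its groups did not overlap, and it was called under 7 of the 19 alternatives, among them the refit without heterozygous replicate 3 (0.43).

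Dcn, the decorin gene on chromosome 10, encodes a collagen-binding proteoglycan and is imprinted in the placenta. It was at 1691, 1695 and 1621 in heterozygous and at 2100, 2917 and 2110 in homozygous spleens. The groups did not overlap, but homozygous array 2 stood well above the others. The rise was 0.49 ± 0.12 (adjusted p = 0.0279), and 0.34 without homozygous replicate 2, where the call was kept. It was lost without each of the heterozygous replicates in turn (0.47 to 0.50, adjusted p of 0.0639 to 0.0678) and once the Y-linked level was a covariate (0.46, adjusted p = 0.124), with estimates near that of all 6 arrays.

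Sfmbt2 showed the deepest fall among the imprinted genes. It encodes a polycomb-related protein, lies on chromosome 2 and is expressed from the paternal allele in extraembryonic tissue. Its intensity was 335, 324 and 346 in heterozygous and 111, 130 and 123 in homozygous spleens. The 2 groups were far apart, with 335 ± 11.0 (SD, n = 3) against 121 ± 9.70, a 2.75-fold lower level in homozygous spleens. The fall was -1.46 ± 0.07 (adjusted p = 1.76e-05), and the call was kept under each of the 19 alternatives. A large microRNA cluster lies in an intron of Sfmbt2, and 2 of its genes had a probe set of their own. Mir669b was at 47.8, 46.6 and 56.7 against 44.6, 42.9 and 37.3 (-0.27 ± 0.10, adjusted p = 0.0881), and Mir297b at 97.9, 78.4 and 74.9 against 74.7, 92.1 and 69.0 (-0.09 ± 0.13, adjusted p = 0.658). Neither was called.

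Nnat was the other gene that fell. It encodes neuronatin, a small membrane protein best known from developing brain and endocrine cells, and it is paternally expressed. It was at 2667, 2771 and 2539 in heterozygous and at 2072, 2089 and 2293 in homozygous spleens, with no overlap. The fall was -0.31 ± 0.07 (adjusted p = 0.021). The call was lost without heterozygous replicate 1 (-0.30, adjusted p = 0.063), heterozygous replicate 2 (-0.28, adjusted p = 0.0792) or homozygous replicate 1 (-0.28, adjusted p = 0.079), with estimates of about the same size. Its fall stood beside a higher summed level of the neuron and glia markers, among which Stmn2, Gap43, Dcx and Sox10 were higher by 0.57 to 0.81.

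**Figure D4:**
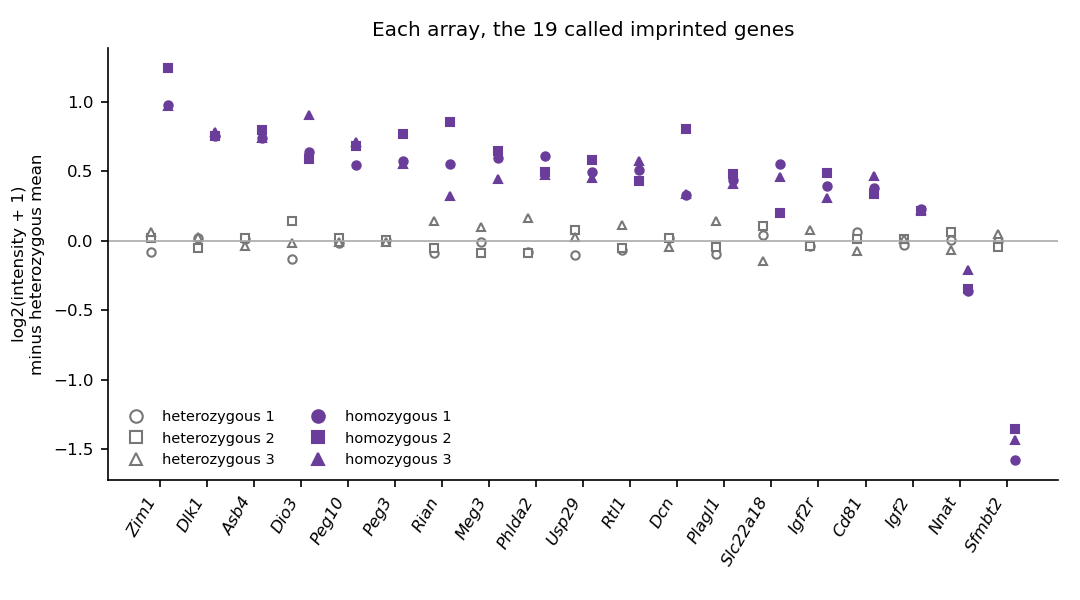
Log2(intensity + 1) minus the heterozygous mean (y axis) on each array for the 19 called imprinted genes; open grey symbols are heterozygous and filled purple ones homozygous arrays, with 1 shape per replicate number. The groups do not overlap for any of the 19, which being called made likely. Over all genes they do not overlap for 21.1% (homozygous higher) and 17.2% (homozygous lower). Homozygous array 2 is the highest of its group for 10 of the 19 and stands apart for Dcn.

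The Snrpn cluster on chromosome 7, all of whose measured genes are paternally expressed, gave no call among 4 genes (beside 17.0% of all genes). Ndn, a MAGE family gene of neurons, was at 3668, 3669 and 3657 in heterozygous and at 3660, 3544 and 3569 in homozygous spleens (-0.03 ± 0.06, adjusted p = 0.746). Magel2, of the same family, was at 147, 155 and 160 against 119, 123 and 151 (-0.24 ± 0.09, adjusted p = 0.116), and it was called lower with array weights and without homozygous replicate 3 (-0.34). Mkrn3, a ring finger gene, was at 120 ± 8.07 against 106 ± 9.29 (-0.18 ± 0.08, adjusted p = 0.173), and Peg12, a Wnt pathway gene of the FRAT family, at 408 ± 41.5 against 415 ± 20.0 (SD, n = 3; 0.03 ± 0.08, adjusted p = 0.834). All 4 had overlapping groups.

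The remaining 6 genes were not called either. Impact, a paternally expressed regulator of the Gcn2 kinase, was at 1603 ± 42.1 in heterozygous and 1783 ± 37.0 in homozygous spleens (SD, n = 3; 0.15 ± 0.06, adjusted p = 0.104), and its groups did not overlap. Mcts2, a translation-related retrogene, and H13, the signal peptide peptidase gene whose bounds hold it, were at 682 ± 9.52 against 625 ± 48.0 and at 846 ± 48.6 against 903 ± 67.9 (SD, n = 3), with estimates of -0.13 ± 0.07 (adjusted p = 0.23) and 0.09 ± 0.08 (adjusted p = 0.437). Gatm, of creatine synthesis, was at 246 ± 7.45 against 227 ± 21.1, and Commd1, of copper handling and endosome sorting, at 193 ± 0.992 against 188 ± 14.2 (SD, n = 3). Rasgrf1, a Ras exchange factor gene of the brain, was dim at 42.6 ± 2.80 against 42.9 ± 6.56. Apart from Impact, the groups of these genes overlapped.

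A further list of imprinted genes was set beside the 39. Of 31 tested, 8 were higher (25.8%, beside 10.4% of all genes) and 1 was lower (3.23%, beside 6.56%), with a median of 0.08. The 4 with the largest change were Ano1, a chloride channel gene (0.55 ± 0.06, adjusted p = 0.0016), Nap1l5, a retrogene of the nucleosome assembly protein family (0.38 ± 0.10, adjusted p = 0.0308), Th, the tyrosine hydroxylase gene (0.37 ± 0.10, adjusted p = 0.0355), and Phactr2, a phosphatase and actin regulator gene (0.37 ± 0.07, adjusted p = 0.0109). The count of 8 became 3 when heterozygous replicate 1, heterozygous replicate 2 or homozygous replicate 1 was left out, and 4 without homozygous replicate 3. Ano1 and Phactr2 were called under each alternative.

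Genes linked to setting, keeping or removing imprints, such as DNA methyltransferases, Tet enzymes, polycomb subunits and zinc finger factors, were listed as well. Of 31 tested none was higher (beside 10.4% of all genes) and 3 were lower (9.68%, beside 6.56%), with a median of -0.04. Dnmt3b, a de novo DNA methyltransferase gene, was at 228, 214 and 248 in heterozygous and at 188, 187 and 156 in homozygous spleens (-0.38 ± 0.09, adjusted p = 0.0271). Tet2, which encodes an enzyme that oxidises methylcytosine, was at 265, 297 and 302 against 226, 240 and 203 (-0.37 ± 0.08, adjusted p = 0.0217). Suz12, a core subunit gene of the polycomb complex PRC2, was at 1151 against 991 on average (-0.22 ± 0.06, adjusted p = 0.0496). The 3 calls became 1 without heterozygous replicate 1 or 2, and 0 without heterozygous replicate 3, homozygous replicate 1 or homozygous replicate 3 or once the Y-linked level was a covariate.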

How the data were processed

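Total RNA of 6 spleen samples was measured on Affymetrix mouse gene arrays. The deposited values are intensities on a linear scale, 1 per probe set and array, which the submitters' processing notes say the authors made with GCRMA. That method corrects background, normalizes arrays and summarises probes. The sources used here do not give its version, the probe sets' definition and strand, or a genome build. A platform annotation gave 1 symbol to 21789 of 35512 probe sets, several to 1621 and none to 12102, and those with 1 symbol were used. Entrez identifiers of 21698 were found in RefSeq (GRCm38.p6) and no symbol changed. Probe sets with a log2 value of at least 4 on at least 3 of 6 arrays were kept, and the brightest per gene was used, which left 18710 genes.

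Expression was modelled on log2(intensity + 1), homozygous minus heterozygous, two-sided, by lmFit and eBayes of limma 3.58.1 (R 4.3.3), with Benjamini-Hochberg adjustment over all genes. Adding 1 pulls folds of dim genes toward 0, and a low intensity is no proof of expression. The number of arrays limits precision. The imprinted genes, the gene lists and the tests were chosen with earlier results of these data known. All measured members are given; from each list up to 4 called genes with the largest change are named, and the microRNA genes of the Dlk1-Dio3 domain were added after their values were seen. Alternatives numbered 19. The fit was also tested on simulated data with the residual spread of these arrays and few altered genes. It recovered 12% of log2 changes of 0.25, 92% of those of 0.5 and 100% of those of 1. A gene that was not called may therefore still have changed by a small amount.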

Additional observations from a re-analysis of the deposited data

How the results depend on the processing

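Over the 19 alternatives, 13 of the 19 called imprinted genes kept their call, and none of the 19 changed sign. The count called higher, 17, was 12 once the Y-linked level was a covariate, 22 with a variance trend and robust fit, and 13 to 18 in the refits that left out 1 array each. The count called lower, 2, was 1 to 3 in those refits. The microRNA genes of the Dlk1-Dio3 domain called higher, 23, were 10 to 24 in those refits and 16 with that covariate; those called lower, 0, were 1 under median centring and 1 with the replicate block, and 0 to 1 in the refits. With the replicate number as a block, 17 imprinted genes were higher and 2 lower. Same-numbered arrays did not deviate together (correlations of -0.011, 0.04 and -0.108), so the numbers are not taken to pair samples. The block ended the call of Igf2 (adjusted p = 0.0676) and made Kcnq1 called. Of 20 uncalled imprinted genes, 8 were called under some alternative and 5 changed sign. Copg2 turned to 0.029 under quantile normalization, 0.038 under cyclic loess, 0.040 under cyclic loess over the genes tested, 0.009 under median centring over the genes tested, 0.006 with array weights and 0.068 with the Y-linked level. Rasgrf1 turned to -0.040 under quantile normalization, -0.018 under median centring, -0.110 under cyclic loess, -0.135 under cyclic loess over the genes tested and -0.046 with array weights. Commd1 turned to 0.002 under quantile normalization. The refits without 1 array ran from -0.088 to 0.062 for Copg2, -0.119 to 0.071 for Rasgrf1, -0.030 to 0.109 for Peg12 and -0.124 to 0.024 for Tssc4. The cause was not tested. Over all genes tested, no scaling moved the median log2 fold change by more than 0.0248. Cyclic loess and median centring over the genes tested were chosen after seeing the data.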
